A study of Homo sapiens with 12 samples.

Results

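These are the transcripts of OVCAR-3 cells whose normalized read count after 6 h of interferon alpha was at most 33.3% of that with the vehicle. OVCAR-3 is an established human ovarian adenocarcinoma line with epithelial morphology, labelled wild type (wt). A gene was taken when its mean over the 3 DMSO libraries was at least 100 normalized reads and its mean over the 3 IFNa libraries was at most that mean divided by 3. BMF, LGR5, BTG2 and symbols starting with ZNF, SLC, LINC or HIST or ending in -AS1 or -AS2 were left out. The rule gave 31 genes of the 28035 listed. Of the 11881 genes that reached the DMSO minimum, 36 (0.303%) met the ratio, and 5 of those were left out by symbol (BMF, LGR5, SLC26A7, SLC40A1 and ZNF488).

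Messenger RNA was sequenced in 4 groups of 3 libraries, all from the same line at 6 h. Cells received DMSO, Fusicoccin A (FC-A, a fungal diterpene glycoside that stabilises complexes of 14-3-3 adapter proteins with their partners), IFNa (interferon alpha), or FC-A and IFNa together (the Combination). The sources used here state no dose. They do not say whether replicates were separate cultures, and a p-value then covers only how far these libraries differ, a spread that may be technical.

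Interferon alpha is an antiviral cytokine that binds the receptor made of IFNAR1 and IFNAR2 and activates the kinases JAK1 and TYK2. The signal ends at interferon-stimulated response elements (ISRE) in the promoters of the antiviral genes. The response is best known for the genes it raises. How far a transcript can fall within hours depends on both its synthesis and the rate at which its existing copies are degraded. RNA counts at a single time do not separate synthesis from decay.

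Recovered reads per library came to 31.2 to 39.5 M. The 22 interferon-stimulated genes listed as a check of the treatment summed to 12339.9 to 13666 normalized reads in the DMSO libraries and to 855958 to 895408 with IFNa. All 18 markers of Müllerian epithelium, the lineage of this carcinoma, had a mean of at least 10 normalized reads. Of 9 leukocyte markers listed, 5 had deposited values and 3 a mean of at least 10. Their sums were 240.4 to 276 normalized reads with DMSO, 255 to 301 with FC-A, 196 to 301 with IFNa and 234 to 315 in the Combination. The epithelial markers summed to 512163 to 527459 with DMSO and 504358 to 555406 with IFNa. Of the 3 leukocyte markers tested, CSF1R was called lower in the Combination than with FC-A by limma and 2 did not pass. Fibroblast markers (9 listed, 3 with a mean of at least 10) summed to 1089 to 1156 with DMSO, 1247 to 1286 with FC-A, 1632 to 2163 with IFNa and 1809.8 to 2448 in the Combination, so their groups with and without IFNa did not overlap. COL1A1, a collagen, held most of that sum, with means of 815, 951, 1676 and 1788 in the same order. DCN was at 0 in all libraries except 1 of IFNa. Of the 3 fibroblast markers tested, COL1A2 was called lower in the Combination than with FC-A by limma, 1 was higher and 1 did not pass. Endothelial markers summed to 681 to 746 with DMSO, 722 to 740.4 with FC-A, 576 to 725 with IFNa and 667 to 674 in the Combination. Of the 4 endothelial markers tested, CDH5 and VWF were called lower in the Combination than with FC-A by limma and 1 was higher. The part of these markers in the results was not tested. In bulk samples fewer cells of a kind and less RNA per cell cannot be told apart.

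Because the DMSO and IFNa libraries chose the 31 genes, their fall in those libraries is given as a description, with no test. All 31 had their 3 IFNa libraries below their 3 DMSO libraries, which held for 27.9% of the genes tested, and nothing is read from that count. The group mean with IFNa ranged from 10.1% to 32.8% of the DMSO mean, with a median of 28.1%. The genes just inside the threshold were MTSS1 (32.8%), RCOR2 (32.5%), METTL7A (32.3%), GRIN2A (31.4%) and NEURL1B (31.3%). Those just outside were CYP1A1 (33.6%), OXTR (34.0%), SLITRK5 (34.1%), TPPP (34.1%) and CTTNBP2 (34.4%), so the boundary falls within a continuous run of values.

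The 6 libraries that the rule did not use, FC-A and the Combination, give the effect of IFNa a second time, in cells that also received FC-A. All 31 genes were lower in the Combination than with FC-A alone and passed limma's moderated test (Benjamini-Hochberg over the 15990 genes tested, threshold 0.05), the adjusted p running from 5.18e-10 to 0.0069. Of all genes tested, 22.3% were called lower in this comparison and 26.6% higher, 48.9% in all. In all 31 genes the 3 Combination libraries lay below the 3 FC-A libraries, which held for 25.4% of the genes tested. The median log2 difference of the 31 genes was -1.82 (range -3.03 to -1.09), beside -0.01 for all genes tested. Log2 differences are of log2(normalized reads + 1), with n = 3 libraries per group throughout.

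**Figure D1:**
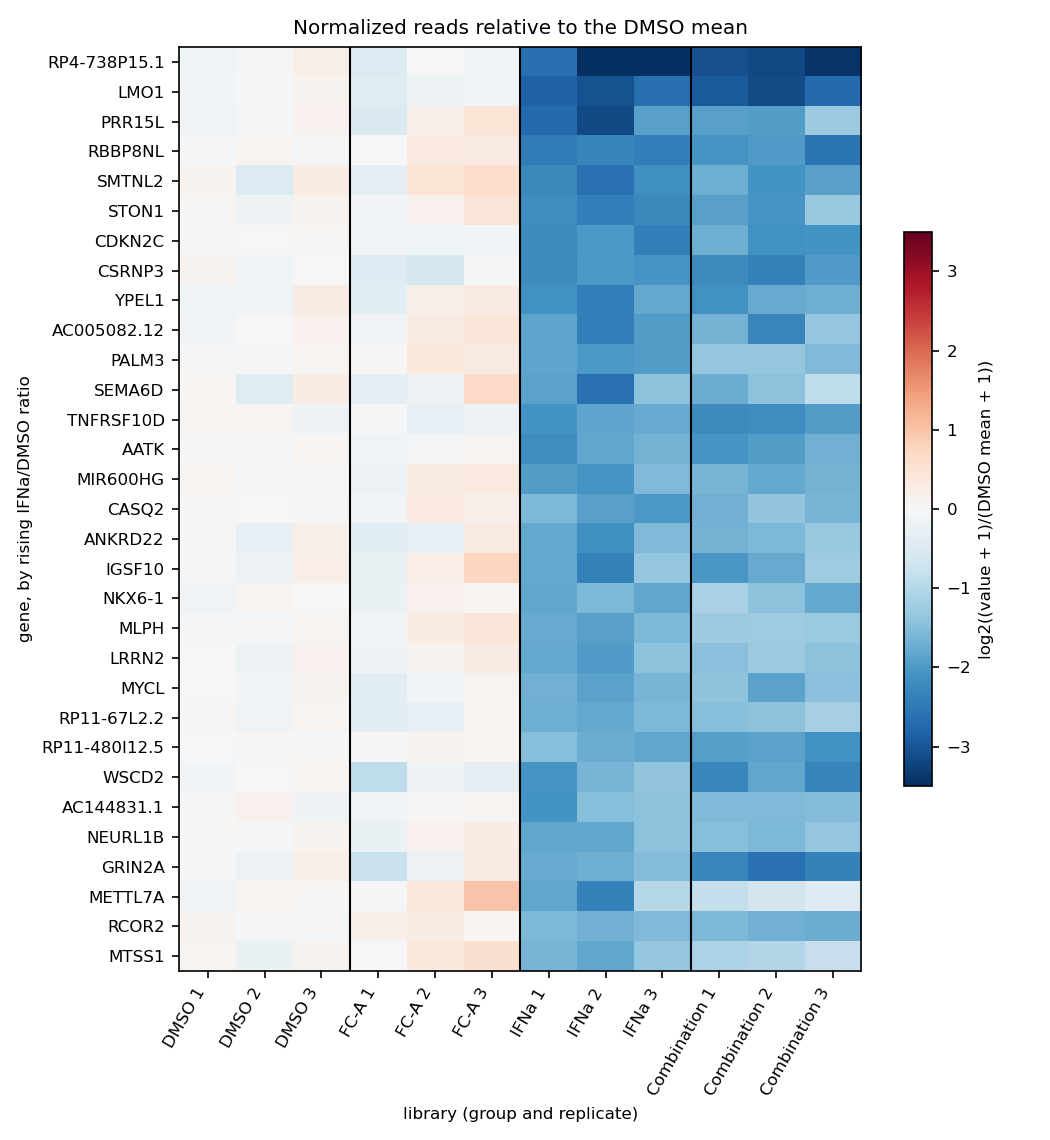
Each row is 1 of the 31 genes and each column 1 library; colour is the log2 ratio of the library's normalized reads plus 1 to the gene's DMSO mean plus 1. The IFNa and Combination libraries are blue in every row, and the FC-A libraries scatter on both sides of 0, from METTL7A replicate 3 (413 normalized reads against a DMSO mean of 207) to WSCD2 replicate 1 (107 against 199); the DMSO and IFNa columns chose the genes.

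The share of reads left in the Combination, relative to FC-A alone, ranged from 11.3% to 45.2% with a median of 27.8%. It was at most 33.3% for 20 of the 31 genes and at most 50% for all 31. Among the 11925 genes with an FC-A mean of at least 100 normalized reads, 0.277% were at most 33.3% and 1.69% at most 50%. Before symbols were left out, 36 genes met the ratio with IFNa alone and 33 in the Combination against FC-A, and 23 were in both sets, 63.9% of the first and 69.7% of the second. In 24 of the 31 genes the share left was larger in the Combination than with IFNa alone. A lean that way follows from the choice of genes on the IFNa libraries, so it was not tested.

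**Figure D2:**
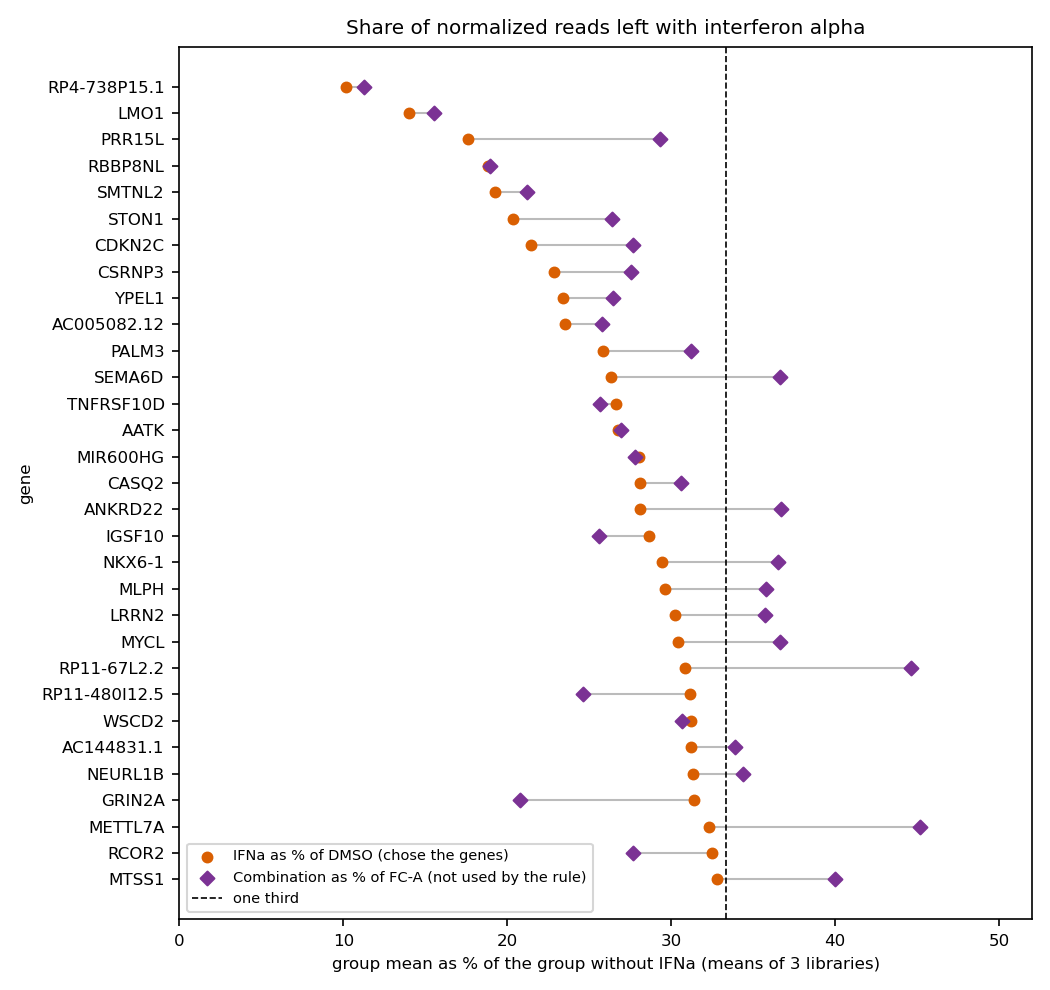
For each gene the circle gives the IFNa mean as a percentage of the DMSO mean and the diamond the Combination mean as a percentage of the FC-A mean (means of 3 libraries). No diamond lies beyond 45.2%, and 20 of 31 lie at or left of the dashed line at 33.3%; the circles lie left of it by the rule.

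Among the regulators of transcription, LMO1, a LIM-only cofactor that bridges DNA-binding proteins and is an oncogene in T-cell leukaemia and neuroblastoma, kept the smallest share of reads among the 25 protein-coding genes. LMO1 stood at 672, 695 and 786 normalized reads in the DMSO libraries (replicates 1, 2 and 3), 531, 639 and 659 with FC-A, 99.9, 86.6 and 115 with IFNa and 92.9, 81.7 and 109 in the Combination. The 6 libraries with IFNa all lay below the 6 without it. In the comparison the rule did not use, LMO1 was 6.45-fold lower (log2 difference -2.68, SE 0.13, adjusted p = 5.18e-10). Its mean ± SD was 609 ± 68.6 normalized reads with FC-A and 94.5 ± 13.7 in the Combination (n = 3).

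MYCL, a member of the MYC family of growth-promoting transcription factors, measured 714, 656 and 776 normalized reads with DMSO, 538, 666 and 771 with FC-A, 224, 196 and 232 with IFNa and 269, 194 and 261 in the Combination. It was 2.73-fold lower in the Combination than with FC-A (log2 difference -1.44, SE 0.14, adjusted p = 1.08e-06), and no Combination library reached the lowest FC-A library. NKX6-1, a homeobox factor known from pancreatic beta cells and the spinal cord, measured 98.9, 115 and 107 normalized reads with DMSO, 90.9, 119 and 112 with FC-A, 29.6, 35.2 and 29.5 with IFNa and 48.5, 39.1 and 29.9 in the Combination. Its fall in the Combination was 2.74-fold (log2 difference -1.45, SE 0.18, adjusted p = 1.54e-05).

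CSRNP3, a nuclear protein of a small family that activates transcription, was 3.63-fold lower (log2 difference -1.83, SE 0.16, adjusted p = 4.11e-07), from 137, 125 and 179 normalized reads with FC-A to 39.1, 35.5 and 47.0 in the Combination. RCOR2, a corepressor of the CoREST family that joins histone deacetylases to the demethylase LSD1, went from 216, 231 and 201 to 63.3, 59.2 and 56.6 (3.62-fold lower, log2 difference -1.84, SE 0.11, adjusted p = 7.21e-09). The RCOR2 libraries were tight within each group, and its share left was smaller in the Combination (27.6%) than with IFNa alone (32.5%). RBBP8NL, a relative of the DNA-end-resection factor RBBP8 (CtIP) has a little known role of its own. RBBP8NL stood at 629, 694 and 642 normalized reads in the DMSO libraries (replicates 1, 2 and 3), 650.4, 828 and 805 with FC-A, 120.3, 128 and 121 with IFNa and 157, 166 and 110.0 in the Combination, which is 5.27-fold lower in the Combination than with FC-A (log2 difference -2.40, SE 0.14, adjusted p = 2.92e-09).

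The promoters of LMO1, NKX6-1 and MYCL are shown as those of transcription regulators with 1 listed start and a match to a motif searched. The window of CSRNP3, which also has 1 listed start, held no match and is not printed. The windows run from 250 bases before to 50 bases after the RefSeq start, 5′ to 3′ on the gene's strand, from RefSeq's GRCh38.p14 build, while the deposited values come from hg19. Capitals mark matches on either strand to the motifs given next: the letters TGANTCA in LMO1, CCAAT in NKX6-1 and the GC box GGGCGG in MYCL. TGANTCA was a loose search for AP-1 sites with any base at N, and the LMO1 match has T there.
LMO1 promoter (GRCh38.p14, chr11:8268738-8269037, minus strand): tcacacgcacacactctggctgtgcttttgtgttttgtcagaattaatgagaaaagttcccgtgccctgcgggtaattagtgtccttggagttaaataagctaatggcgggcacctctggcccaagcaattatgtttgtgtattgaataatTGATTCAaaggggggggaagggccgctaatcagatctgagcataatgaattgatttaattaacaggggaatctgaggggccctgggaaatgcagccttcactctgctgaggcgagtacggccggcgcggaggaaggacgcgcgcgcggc
NKX6-1 promoter (GRCh38.p14, chr4:84499243-84499542, minus strand): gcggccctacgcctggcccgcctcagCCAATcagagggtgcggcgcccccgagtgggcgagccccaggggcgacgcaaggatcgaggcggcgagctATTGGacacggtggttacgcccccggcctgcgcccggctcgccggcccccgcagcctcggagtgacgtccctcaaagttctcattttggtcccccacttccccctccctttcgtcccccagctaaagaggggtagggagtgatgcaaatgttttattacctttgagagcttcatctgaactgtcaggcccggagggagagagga
MYCL promoter (GRCh38.p14, chr1:39901868-39902167, minus strand): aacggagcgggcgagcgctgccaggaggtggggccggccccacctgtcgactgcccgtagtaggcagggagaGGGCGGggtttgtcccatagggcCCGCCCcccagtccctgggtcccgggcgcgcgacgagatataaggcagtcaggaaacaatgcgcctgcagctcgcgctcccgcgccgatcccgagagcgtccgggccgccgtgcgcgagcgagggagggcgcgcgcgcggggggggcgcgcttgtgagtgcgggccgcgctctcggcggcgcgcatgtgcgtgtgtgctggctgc

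A window was matched for 17 of the 31 genes. Where a gene had several, the first listed was read, for members and for all 27305 genes alike. The ISRE core, GAAA and again GAAA with any pair of bases between, occurred in 0 of the 17 windows and in 3.65% of all, and the core TTCNNNGAA of the gamma-activated site (GAS) in 0 and 7.88%. TATAAA was also in 0 of 17 (12% of all), as was TGACGTCA (1.98%). CCAAT occurred in 4 of 17 (35.7% of all), GGGCGG in 7 (44.6%), TGANTCA in 2 (7.76%) and the E-box CACGTG in 3, CDKN2C, SEMA6D and MLPH (7.43%). No printed match overlapped another motif. With 17 windows these shares are a description, and a window without the letters says nothing of sites elsewhere.

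Relatives of these regulators did not move as a block. LMO2 was 364, 399.9 and 432 normalized reads with FC-A and 1024, 956 and 998 in the Combination, a log2 difference of 1.32 (adjusted p = 2.02e-07). LMO3 fell by 0.81 (adjusted p = 2.16e-06), and LMO4 measured 0.04 (adjusted p = 0.577). Of 17 tested genes in a list of LIM-only and LIM homeobox factors with their DNA-binding partners, 3 were higher and 8 lower, LMO1 included, and 6 did not pass (median -0.16, all genes -0.01). The lower ones included the LMO partner LDB1, which links LIM proteins into complexes.

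MYC, the founding gene of MYCL's family, moved the other way, from 687, 652 and 599 normalized reads with FC-A to 2376, 2556 and 2115 in the Combination, a log2 difference of 1.86 (adjusted p = 1.93e-11). MYCN had few reads, 13.4, 20.3 and 20.2 with FC-A and 10.6, 10.7 and 12.8 in the Combination, and did not pass (adjusted p = 0.108). CSRNP1 and CSRNP2 rose by 0.68 (adjusted p = 5.31e-06) and 0.55 (adjusted p = 1.64e-06). RCOR1 rose by 0.28 (adjusted p = 0.00013) while RCOR3 fell with a log2 difference of -0.15 (adjusted p = 0.042), both small beside RCOR2. In the list of corepressors and Polycomb genes 10 of 26 were higher, 8 lower with RCOR2 among them, and 8 did not pass (median 0.04). RBBP8 itself rose by 0.25 (adjusted p = 0.0241), and of 10 genes of RBBP8 and its partners 5 were higher, 3 lower (RBBP8NL, MRE11A and BRCA1) and 2 did not pass (median 0.10).

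**Figure D3:**
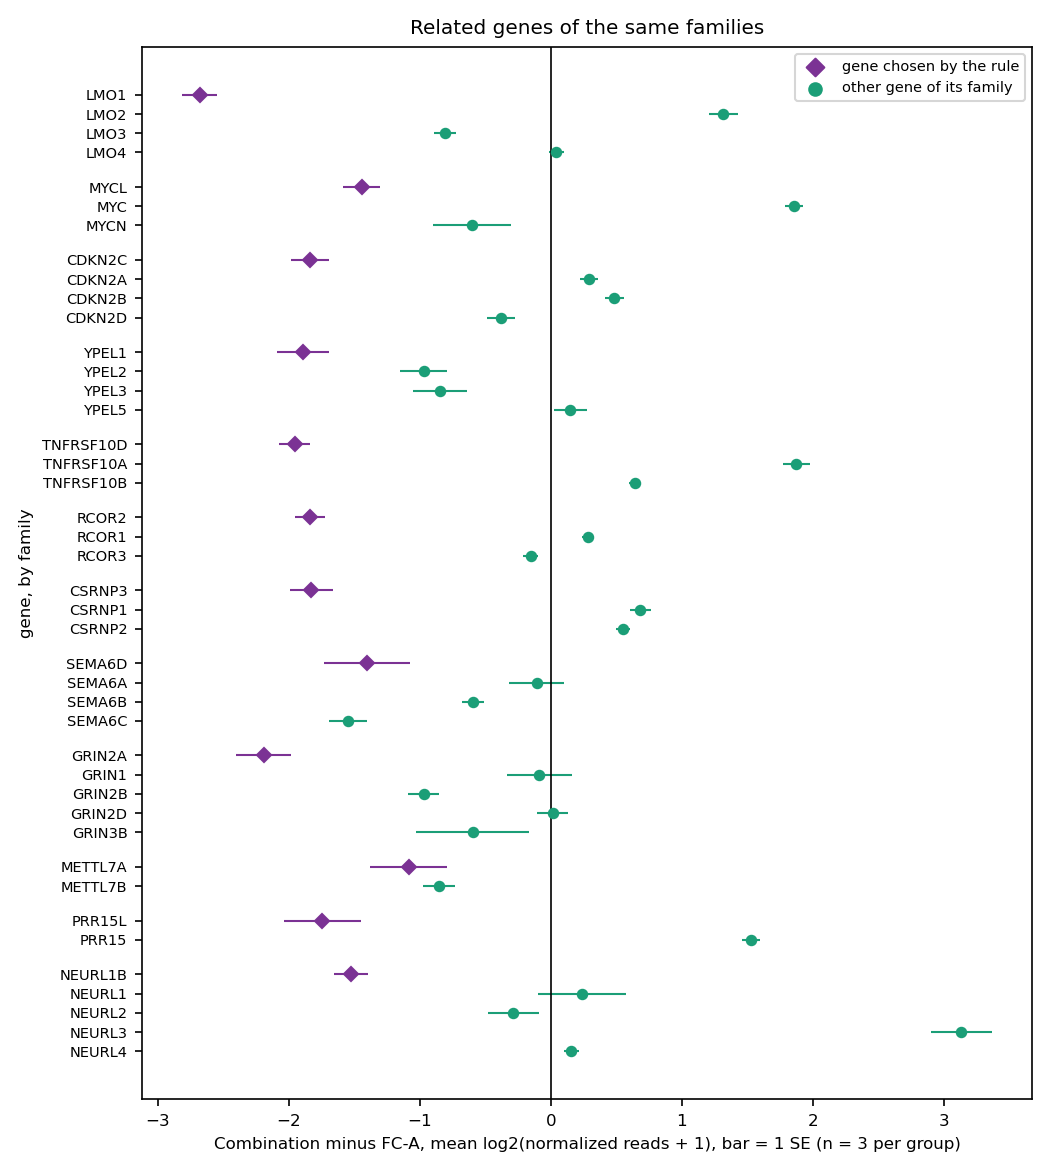
Log2 difference between the Combination and FC-A alone (1 SE bars, n = 3 libraries per group) for genes chosen by the rule (diamonds) and the tested genes of the same families (circles). LMO2, MYC, TNFRSF10A, PRR15 and NEURL3 lie right of 0 while the diamonds of their families lie left of it; YPEL2, YPEL3, SEMA6B, SEMA6C, GRIN2B and METTL7B lie left of 0 with theirs.

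CDKN2C encodes p18INK4C, an inhibitor of the G1 kinases CDK4 and CDK6. CDKN2C measured 166, 172 and 176 normalized reads with DMSO, 156, 154 and 161 with FC-A, 36.7, 41.9 and 31.6 with IFNa and 51.7, 39.1 and 39.5 in the Combination, which is 3.61-fold lower in the Combination than with FC-A (log2 difference -1.84, SE 0.15, adjusted p = 1.19e-07). Of the other INK4 genes, CDKN2A measured 0.29 (adjusted p = 0.0023) and CDKN2B 0.49 (adjusted p = 4.66e-05), both higher, and CDKN2D was lower at -0.38 (adjusted p = 0.0105). Of the 4 INK4 genes, CDKN2C alone kept under 50% of its FC-A level.

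TNFRSF10D encodes a decoy receptor for the death ligand TRAIL that lacks a working death domain. TNFRSF10D stood at 447, 444 and 375 normalized reads in the DMSO libraries (replicates 1, 2 and 3), 411, 343 and 373 with FC-A, 97.9, 116 and 123 with IFNa and 88.7, 92.4 and 108 in the Combination. The fall in the Combination was 3.90-fold (log2 difference -1.95, SE 0.12, adjusted p = 7.71e-09), and all 6 libraries with IFNa lay below all 6 without it. The signalling TRAIL receptors went up in the same libraries: TNFRSF10A from 868, 707 and 621 to 2737, 2827 and 2431 normalized reads with a log2 difference of 1.87 (adjusted p = 2.01e-09), and TNFRSF10B by 0.64 (adjusted p = 3.65e-08). The other decoy, TNFRSF10C, had a mean of 9.71 normalized reads with DMSO and 5.30 with IFNa, below the minimum for the test. These 4 receptors are close relatives in sequence, so reads could be shared between them.

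YPEL1, a small nuclear protein of the yippee family, was 3.78-fold lower in the Combination (log2 difference -1.89, SE 0.20, adjusted p = 2.44e-06), from 221, 323 and 349 to 65.4, 84.1 and 86.5 normalized reads. YPEL2 and YPEL3 fell with it by smaller log2 differences of -0.97 (adjusted p = 0.000484) and -0.84 (adjusted p = 0.00387), and YPEL5 measured 0.15 (adjusted p = 0.345). AATK, a membrane-bound kinase named for its rise in dying myeloid cells, went from 98.9, 103 and 116 to 25.3, 27.2 and 33.1 (3.71-fold lower, log2 difference -1.86, SE 0.17, adjusted p = 5.16e-07). AATK lies across BAIAP2 on the opposite strand, whose mean was 2897 with FC-A and 3213 in the Combination. YPEL1 likewise overlaps PPIL2 (mean 3516 and 3089). The library kit keeps strand, but no source used here says whether the counting used it, so reads of such pairs cannot be told apart.

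Proteins of membrane traffic and the cytoskeleton, relatives of such proteins included, gave 6 of the 31 genes. STON1 (stonin 1, an adaptor of clathrin-mediated endocytosis) fell from 197, 233 and 287 to 55.9, 49.7 and 83.3 normalized reads (3.79-fold, adjusted p = 1.04e-06), while its relative STON2 fell by a log2 difference of -0.39 (adjusted p = 0.000922). NEURL1B, a ubiquitin ligase that promotes endocytosis of Notch ligands, measured 599.5, 596 and 673 normalized reads with DMSO, 533, 687 and 745 with FC-A, 177, 176 and 231 with IFNa and 221, 211 and 243 in the Combination. Its fall in the Combination was 2.91-fold (log2 difference -1.53, SE 0.13, adjusted p = 2.59e-07), whereas NEURL3 rose from 179, 108 and 70.8 to 1054, 1008 and 893 with a log2 difference of 3.13 (adjusted p = 5.45e-08).

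MLPH (melanophilin), which couples RAB27A on vesicles to the motor MYO5A, fell 2.79-fold (log2 difference -1.46, SE 0.12, adjusted p = 2.26e-07), from 387, 494 and 549 to 171, 174 and 167 normalized reads. Of its partners, RAB27A measured 0.05 (adjusted p = 0.687) and MYO5A fell by 0.31 (adjusted p = 0.00125) on the log2 scale. MTSS1, which bends membranes and binds actin, was the member nearest the threshold of the rule, and it fell 2.5-fold in the Combination (log2 difference -1.29, SE 0.18, adjusted p = 2.99e-05). It overlaps NDUFB9 on the opposite strand, whose mean was 8999 with FC-A and 7505 in the Combination.

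PALM3, of the paralemmin family of lipid-anchored membrane proteins, and SMTNL2, a relative of the actin-binding smoothelin, fell by log2 differences of -1.66 (SE 0.12) and -2.15 (SE 0.26). PALMD and PALM of the first family had log2 differences of -0.91 (adjusted p = 6.01e-06) and -0.46 (adjusted p = 6.08e-05). SMTN fell by 1.11 (adjusted p = 1.42e-07). PALM2 was higher, at 0.63 (adjusted p = 0.0118).

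Several of the genes encode proteins best known from neurons or muscle. GRIN2A encodes an NMDA-type glutamate receptor subunit. GRIN2A stood at 295, 266 and 353 normalized reads in the DMSO libraries (replicates 1, 2 and 3), 176, 265 and 371 with FC-A, 89.8, 92.3 and 105 with IFNa and 61.2, 48.6 and 58.7 in the Combination. The fall in the Combination was 4.82-fold (log2 difference -2.19, SE 0.21, adjusted p = 9.02e-07), beside the ratio with IFNa alone that chose it (3.18-fold), and the FC-A libraries ran from 176 to 371. GRIN2B fell by 0.97 (adjusted p = 8.56e-06) on the log2 scale, while GRIN1, the subunit every NMDA receptor needs, measured -0.09 (adjusted p = 0.799) and GRIN2D 0.01 (adjusted p = 0.937).

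SEMA6D, a transmembrane semaphorin that guides axons, went from 89.1, 95.6 and 175 to 32.7, 40.3 and 58.7 normalized reads (log2 difference -1.40, SE 0.33, adjusted p = 0.00272) and had the largest SE of the 31. SEMA6C fell by a similar log2 difference of -1.55 (adjusted p = 7.73e-07), SEMA6B by 0.60 (adjusted p = 4.1e-05), and SEMA6A measured -0.11 (adjusted p = 0.703). LRRN2, a neuronal leucine-rich repeat protein, fell 2.80-fold (log2 difference -1.47, SE 0.15, adjusted p = 1.88e-06), against -0.05 (adjusted p = 0.684) for LRRN1 and a rise of 1.01 (adjusted p = 8.5e-05) for LRRN4. CASQ2, the calcium store protein of heart muscle, fell from 256, 348 and 307 to 84.4, 105 and 88.6 (3.27-fold, log2 difference -1.69, SE 0.14, adjusted p = 2.02e-07). IGSF10, a secreted immunoglobulin superfamily protein, fell 3.91-fold (log2 difference -1.93, SE 0.28, adjusted p = 6.49e-05) and overlaps MED12L on the opposite strand, whose mean was 284 with FC-A and 275 in the Combination.

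The remaining coding genes have enzymatic or little known roles. METTL7A, a methyltransferase of the endoplasmic reticulum and lipid droplets, showed the smallest fall of the 31 genes in the Combination, 2.21-fold (log2 difference -1.09, SE 0.29, adjusted p = 0.0069). METTL7A stood at 191, 216 and 214 normalized reads in the DMSO libraries (replicates 1, 2 and 3), 200.5, 272 and 413 with FC-A, 58.1, 39.0 and 104 with IFNa and 116, 133 and 152 in the Combination. METTL7B fell by 0.85 (adjusted p = 5.15e-05) on the log2 scale. WSCD2, a WSC-domain membrane protein, went from 107, 175 and 156 to 40.1, 55.7 and 38.4 (log2 difference -1.67, SE 0.21, adjusted p = 1.35e-05). ANKRD22, an ankyrin repeat protein, fell by a log2 difference of -1.40 (SE 0.22). PRR15L, a proline-rich protein, measured 458, 487 and 553 normalized reads with DMSO, 349, 562 and 693 with FC-A, 74.5, 55.2 and 134 with IFNa and 134, 128 and 208 in the Combination, a fall in the Combination of 3.41-fold (log2 difference -1.74, SE 0.29, adjusted p = 0.00021). Its relative PRR15 rose from 375, 412 and 413 to 1146, 1162 and 1157 with a log2 difference of 1.53 (adjusted p = 2.22e-10).

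The other 6 genes are not protein-coding in GENCODE 29. The lincRNA RP4-738P15.1, whose nearest coding gene is ENTPD6, had the smallest share left of all 31, and also the fewest reads. RP4-738P15.1 stood at 102, 108 and 131 normalized reads in the DMSO libraries (replicates 1, 2 and 3), 81.1, 116 and 106 with FC-A, 17.3, 8.57 and 8.73 with IFNa and 12.7, 11.8 and 9.61 in the Combination, and the Combination was 8.87-fold below FC-A (log2 difference -3.03, SE 0.25, adjusted p = 2.26e-07). Its lowest library held 8 recovered reads, against at least 18 for every other member. The mean of ENTPD6 was 3364 with FC-A and 4659.5 in the Combination.

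MIR600HG, the host transcript of miR-600, lies within STRBP on the same strand and fell from 465, 641 and 684 to 173, 154 and 171 (3.60-fold, log2 difference -1.82, SE 0.15, adjusted p = 1.54e-07). STRBP also had a lower mean, 2966 against 3924 normalized reads, and reads could be shared between the pair. The lincRNAs AC005082.12, AC144831.1 and RP11-67L2.2 fell by log2 differences of -1.96 (SE 0.24), -1.53 (SE 0.18) and -1.15 (SE 0.13). RP11-480I12.5, a transcribed pseudogene whose reads may be shared with its parent gene, fell from 403, 455 and 435 to 109.8, 114 and 95 (4.06-fold, log2 difference -2.01, SE 0.11, adjusted p = 1.4e-09).

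**Figure D4:**
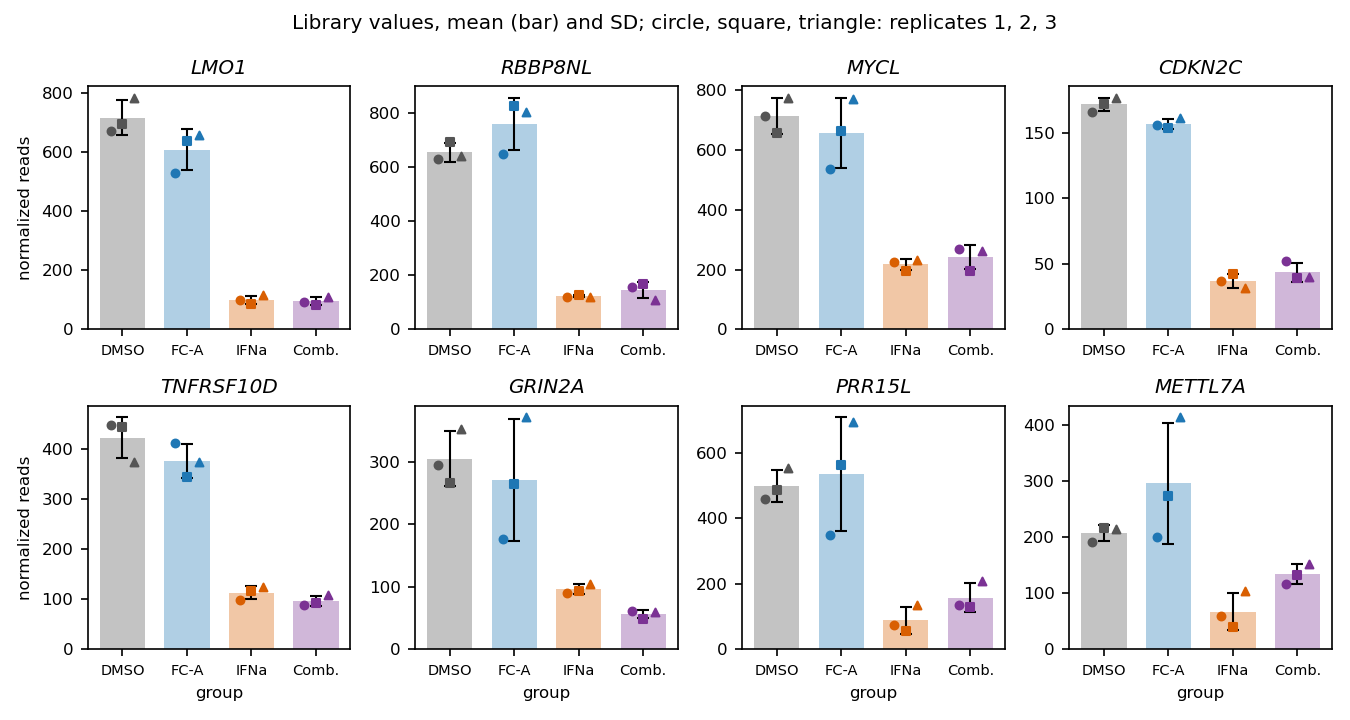
Normalized reads of 8 of the 31 genes in every library (circle, square and triangle for replicates 1, 2 and 3), with bars for the group mean and whiskers for 1 SD (n = 3). The IFNa and Combination libraries lie below all DMSO and FC-A libraries in each panel; the Combination libraries of METTL7A lie above its IFNa libraries and those of GRIN2A below them.

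For FC-A without IFNa no difference from DMSO was called. None of the 31 passed limma's test for FC-A against DMSO, where 0.3% of all genes tested were called (0.144% lower, 0.156% higher). In that test 2 had an unadjusted p under 0.05 (CSRNP3 and WSCD2, both lower). The share of all genes at that limit was not counted, so nothing is read from these 2. edgeR, DESeq2 and the authors' deposited table also called 0 of the 31. The log2 differences ran from -0.47 (WSCD2) to 0.45 (METTL7A) with a median of 0.05, and their SE ran from 0.11 to 0.33. In 3 genes, LMO1, CDKN2C and WSCD2, the FC-A libraries lay below all DMSO libraries, and in 0 above them, beside 7.44% and 7.81% of all genes tested. This comparison shares the DMSO libraries with the rule, so its values lean downward by choice.

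With FC-A on top of IFNa, single genes had differences of up to 1.09 on the log2 scale, none past the threshold. In the Combination against IFNa, 0.331% of all genes tested were called (0.194% lower, 0.138% higher) and 0 of the 31. edgeR and DESeq2 on the recovered reads called 0 as well. At an unadjusted limma p under 0.05 there were 11, 8 higher and 3 lower. The share of all genes at that limit was not counted, so nothing is read from these 11. METTL7A had the largest value, 1.09 on the log2 scale (SE 0.29, adjusted p = 0.151), with all 3 Combination libraries above all 3 IFNa libraries. The authors' deposited table lists METTL7A at a log2 fold change of 1.0 with an adjusted p of 0.0342, the only one of the 31 below 0.05 there. Of the 13360 genes with an adjusted p in that table, 1.73% were below 0.05.

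PRR15L was 0.89 higher on the log2 scale in the Combination than with IFNa (SE 0.29, adjusted p = 0.235), but its lowest Combination library, 128 normalized reads, lay below its highest IFNa library, 134. GRIN2A had the lowest value, -0.76 (SE 0.21, adjusted p = 0.164), and its Combination libraries lay below all its IFNa libraries. In 7 genes the Combination lay above all IFNa libraries (SMTNL2, STON1, PALM3, MLPH, RP11-67L2.2, METTL7A and MTSS1) and in 2 below (GRIN2A and RP11-480I12.5), beside 9.64% and 6.75% of all genes tested. This comparison shares the IFNa libraries with the rule, so its values lean upward by choice (median 0.23).

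Whether single genes passed depended on single libraries and on the model. The IFNa libraries also chose the genes, so values lean upward by choice and nothing is read from the higher calls below. With the replicate number in the model, limma called METTL7A, PRR15L, MLPH, MTSS1, PALM3 and STON1 higher and GRIN2A lower. That model called 6.31% of all genes tested. Without IFNa replicate 3, in which 21 of the 31 genes had their highest IFNa value, limma called 4 genes higher in the Combination than with IFNa: METTL7A (adjusted p = 0.0118), PRR15L (0.0283), MLPH (0.0341) and MTSS1 (0.0492). The share of all genes with their highest IFNa value in that library was not counted. Without replicate 3 of every group 5 were higher, METTL7A (0.00134), PRR15L (0.00579), MLPH (0.0121), PALM3 (0.0467) and LRRN2 (0.0383), and GRIN2A was lower (0.0282). Without FC-A replicate 1, which enters only the estimate of the spread here, MLPH was higher (0.0447) and GRIN2A lower (0.0447). Over all genes tested, 3.19% were called without IFNa replicate 3, 7.42% without replicate 3 of every group and 0.575% without FC-A replicate 1. With all libraries it was 0.331%, so calls rose across the genes tested and not only in the 31. In each of these settings the share called was larger among the 31 than among all genes tested. A lean to higher values follows from the choice of genes, so that gap was not tested.

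**Figure D5:**
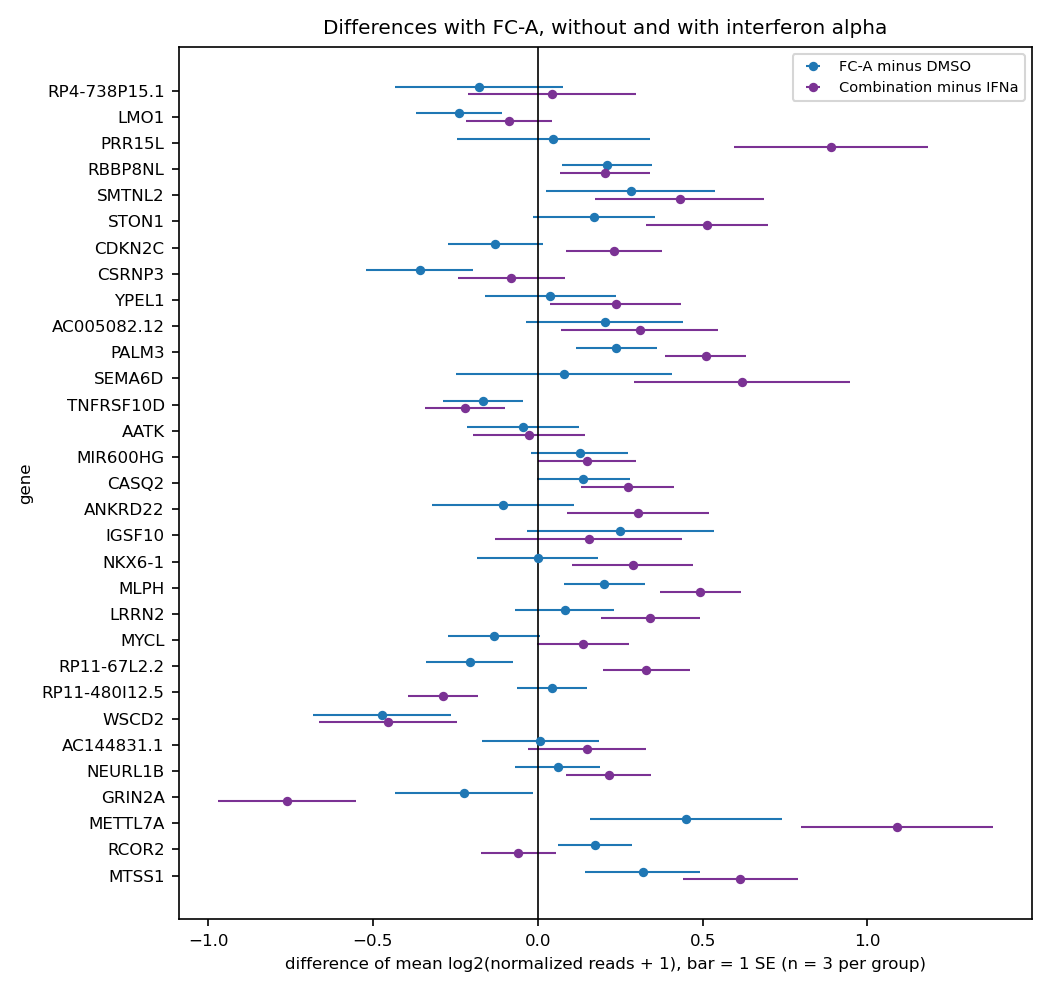
Log2 differences with FC-A for each of the 31 genes, without IFNa (FC-A minus DMSO) and with it (Combination minus IFNa); bars are 1 SE, n = 3 libraries per group. Values without IFNa lie between -0.47 and 0.45, and those with IFNa reach 1.09 for METTL7A and -0.76 for GRIN2A; none passed limma's threshold.

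Libraries of a group differed in the level of these genes. The summed normalized reads were 7807, 9783 and 10886 in the FC-A libraries and 2335, 2155 and 2708 with IFNa, against 9101, 8827 and 9772 with DMSO and 2724, 2669 and 2954 in the Combination. The library numbered 3 was the highest in all 4 groups for 10 of the 31 genes and the lowest in all 4 for 0. The same shares over all genes were not counted, so nothing is read from these counts. Within replicate numbers 1, 2 and 3 the median share left in the Combination was 36.7%, 26.9% and 28.6% of FC-A, and the highest was 57.9%, 48.7% and 42.1%. All 31 genes were called lower without replicate 3 of every group, and without FC-A replicate 1. Over the 15990 genes tested, 3462 and 3432 were called lower in these 2 settings. What sets the replicates apart was not tested.

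Most of the 31 genes had a low level. Per kilobase of the longest GENCODE 29 transcript, their median DMSO level was 66.4 normalized reads, against 290.3 for the 11726 genes that reached the DMSO minimum and matched the annotation, and 2 of 31, LMO1 and PRR15L, lay above that median. They were spread over 17 chromosomes, with at most 5 on 1 (chromosome 1), and no pair lay within 2 coding genes of each other. Across the 31 genes the log2 difference of IFNa against DMSO and that of the Combination against FC-A had a Pearson correlation of 0.77, which describes these genes only: genes are not replicates, and both values hold the gene's own read depth.

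Lists of other transcription factors and of cell cycle genes gave smaller medians in the Combination against FC-A. The 31 genes were chosen for a fall, so nothing is read from that contrast. Across all genes tested 26.6% were called higher and 22.3% lower in this comparison. Of 29 tested HOX, PBX and MEIS genes, which set position along the body axis, 1 was higher, 12 lower and 16 did not pass (median -0.33, all genes -0.01). Of 21 genes of mitosis and G2/M 1 was higher, 19 lower and 1 did not pass (median -0.58). Neither list holds any of the 31 genes. Of the circadian clock genes 12 of 19 were higher and 2 lower (median 0.31), and of the Wnt ligands and feedback genes 15 of 32 were higher and 9 lower (median 0.26). Among 14 ID, HES and HEY repressors 7 were higher and 4 lower (median 0.50), and among 24 p53 targets 11 were higher and 9 lower (median -0.03).

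Applied to the Combination against FC-A, the same rule would have added 10 genes that IFNa alone did not bring to 33.3% or that missed the DMSO minimum. AP003068.12 missed only the minimum, with a DMSO mean of 99.8 normalized reads and shares left of 15.6% and 18.6% in the Combination and with IFNa alone. PDZRN3, a ubiquitin ligase with PDZ domains, had the widest gap, with 32.3% left in the Combination and 56.5% with IFNa alone. Its FC-A libraries measured 152, 92.7 and 87.4 normalized reads, and its DMSO mean of 96.5 also missed the minimum. NANOS1, an RNA-binding repressor of translation in germ cells, kept 26.3% and 36.2%. Its means with IFNa and in the Combination were 91.2 and 95.7 normalized reads, and those it is set against were 252 with DMSO and 363 with FC-A. The other 7 (CERK, CTTNBP2, GNAO1, KCNH3, KLHDC9, MTURN and TMCC2) kept 27.7% to 32.8% in the Combination and 34.4% to 42.2% with IFNa alone. For all of these 10 but AP003068.12, a smaller share left in the Combination follows from how they were chosen, so nothing is read from the gaps. The genes described singly were named after their values were seen, and whether the paired shares differ was not tested.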

How the data were processed

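Normalized gene counts of 12 libraries (TruSeq Stranded mRNA, 100 ng of total RNA) and tables of comparisons were deposited. Per the submitters' processing notes, bcl2fastq 2.20, STAR 2.7.3, FastQC, DESeq2 1.24.0 and hg19 were used; no source used here names the counter or annotation. The deposited values are a linear signal, counts divided by a factor per library, and 100% of them gave whole reads within 0.01. The authors' deposited table holds log2 fold changes and p-values.

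Values were tested as log2(value + 1) with limma 3.58.1 (R 4.3.3) for the 15990 genes with a mean of at least 10, in 1 model with 4 group means, Benjamini-Hochberg adjusted, threshold 0.05. Alternatives included edgeR 4.0.16 and DESeq2 1.42.0 on the recovered reads. In simulated data for the Combination against FC-A with 15990 genes, 92% of 50 genes set at a log2 difference of -1 and 94% of 50 at -1.5 were called, and 0.0127% of unchanged genes. There 15790 genes were unchanged and all genes shared 1 median dispersion, whereas 48.9% were called in the data. These rates therefore check the code and do not carry over to the data or to its more variable genes. All 31 genes passed the minimum and are described by role. The members, lists and relatives were chosen with earlier results of these data known, and the relatives after the members were known. Types, lengths and overlaps come from GENCODE 29 by Ensembl ID (31 of 31 matched), and promoters from RefSeq, GRCh38.p14.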

Additional observations from a re-analysis of the deposited data

How the results depend on the processing

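The 31 genes were called lower in the Combination than with FC-A under every alternative run (pseudocounts, filters, scalings, TMM and quantile included, edgeR, DESeq2, the replicate block, each library left out), and the authors' deposited table calls them too. Their median log2 difference stayed between -1.87 (without FC-A replicate 1) and -1.67 (a pseudocount of 8). Over all genes, the number called lower in that comparison ran from 2888 (without FC-A replicate 2) to 5407 (quantile scaling, where the median of all genes was -0.11). None of the 31 was called for FC-A against DMSO under any alternative. For the Combination against IFNa, 0 genes were called higher and 0 lower. The replicate block gave 6 higher (PRR15L, STON1, PALM3, MLPH, METTL7A and MTSS1) and 1 lower (GRIN2A) and changed no other call of the 31, and the authors' deposited table gave 1 higher, METTL7A. Leaving out 1 library gave 0 to 4 higher and 0 to 1 lower, and leaving out replicate 3 of every group 5 higher and 1 lower. The IFNa libraries chose the genes, so nothing is read from the higher calls. Same-numbered libraries deviated together, with correlations of 0.03 to 0.34 in the Combination and FC-A. They were 0.07 to 0.30 in the Combination and IFNa and 0.02 to 0.22 in FC-A and DMSO. All were positive but not all were above 0.1, a limit chosen here for reading the numbers as pairs and not a standard. In each comparison 4 of 6 libraries correlated best with their own number. What a shared number stands for was not tested. Over all genes the block raised the calls of the Combination against IFNa from 53 to 1009, edgeR gave 55 and DESeq2 240. The authors' deposited table holds 231. Leaving out IFNa replicate 3 gave 510, and leaving out replicate 3 of every group 1187. The number of genes that meet the rule was 177 at 50% of the DMSO mean, 10 at 25%, 51 with a minimum of 50 and 17 with one of 200, by construction of those limits. It was 27 to 39 with 1 DMSO or IFNa library left out, 27 without DMSO replicate 3 and 39 without IFNa replicate 3. The lowest member held 8 recovered reads in a library, which limits its precision.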
